A study of Rattus norvegicus with 6 samples.

Results

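The genes examined are 10 members of the family of regulators of G protein signalling (RGS): Rgs4, Rgs7, Rgs8, Rgs9, Rgs10, Rgs12, Rgs14, Rgs16, Rgs17 and Rgs20. They were chosen by name, with earlier results of these data known. Every non-control probe whose transcript accession belongs to one of them was kept, which gave 11 probes among 30367 on the array. Rgs17 had 2 matched probes and each other member had 1. Probes that could not be matched to a gene may include further Rgs probes. All 11 were well above background on all 6 arrays and all were tested, so no member was lost to the filter on dim signal. RNA came from the brain of 3 rats of the SPORTS line, a hyperactive mutant line, and of 3 wild type rats. All 6 were males of Wistar background, 15 weeks old and sedentary, and each was measured on its own single-colour array. The labels give neither the mutation of the line nor a brain region, and nothing shows whether the rats of a group came from separate litters.

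Heterotrimeric G proteins carry the signal of receptors for dopamine, opioids, acetylcholine, glutamate and many other transmitters while their alpha subunit holds GTP. RGS proteins bind that active alpha subunit through a shared domain and speed up GTP hydrolysis, which shortens the signal. The mammalian family falls into the R4 group of small proteins (here Rgs4, Rgs8 and Rgs16), the R7 group that works as a complex with the beta subunit Gnb5 (Rgs7 and Rgs9), the RZ group that prefers the alpha subunit Gz (Rgs17 and Rgs20) and the R12 group (Rgs10, Rgs12 and Rgs14). In rodent brain the members have distinct maps, among them Rgs9 in striatum, Rgs8 in cerebellar Purkinje cells and Rgs14 in hippocampal area CA2.

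Every signal below is a log2 value relative to its own array, with 0 at the 75th percentile of the array's spots. A difference is the SPORTS mean less the wild type mean on this scale. Each probe was tested with limma's moderated test across 20658 probes, with Benjamini-Hochberg adjustment and a threshold of 0.05. The median difference of all tested probes was -0.00165. All arrays lay on 1 slide, where wild type rats 1 and 2 took slide row 1 and wild type rat 3 and the 3 SPORTS rats took slide row 2. Differences within row 2 therefore rest on 1 wild type array. The same holds for the fit with the slide row as a block, because no SPORTS array lay in row 1. Its differences equal those within row 2, so a call kept or lost with the block depends on wild type rat 3. The p-values measure only the spread between these animals. Markers of neurons (Snap25), astrocytes (Aqp4) and oligodendrocytes (Mog) were well above background on every array. SPORTS rat 1 stood apart on some cerebellar markers, among them Pcp2 and Car8, but not on Calb1, Zic1 or Itpr1. That rat was also lowest on the thalamic marker Prkcd, at 0.68 against 1.23 to 1.91 on the other arrays. On the CA2 marker Pcp4 it was lowest too, at 1.98 against 2.26 to 2.77. Probes bind with unlike strength, so no level is compared between genes.

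Of the 11 member probes, 5 were lower in SPORTS and none was higher, in a comparison that called 21.1% of all tested probes, 10.1% as lower and 11.1% as higher. The 5 belong to Rgs9, Rgs4, Rgs17, Rgs8 and Rgs20. All 11 differences lay below 0, with a median of -0.15, against a median of -0.00165 over all tested probes. Those of Rgs16, Rgs14 and 1 Rgs17 probe lay near 0, at -0.0059, -0.034 and -0.014, and each changed sign in some alternative. Within slide row 2, 10 of the 11 lay below 0. Only Rgs9 passed with a difference of at least 2-fold, as 0.731% of all probes did downward. The members were chosen with earlier results of these data known, and their excess of falls was not tested. With the slide row as a block the fit called 3 members, Rgs9, Rgs4 and Rgs17, against 7.73% of all probes called and 4.14% called lower. The 2 groups did not overlap for 8 of the 11 probes, always with SPORTS below. Of all tested probes 41.9% did not overlap, and 20.5% lay wholly lower in SPORTS. RNA came from whole tissue, so that fewer cells of a type and less RNA per cell cannot be told apart in any of these values.

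**Figure D1:**
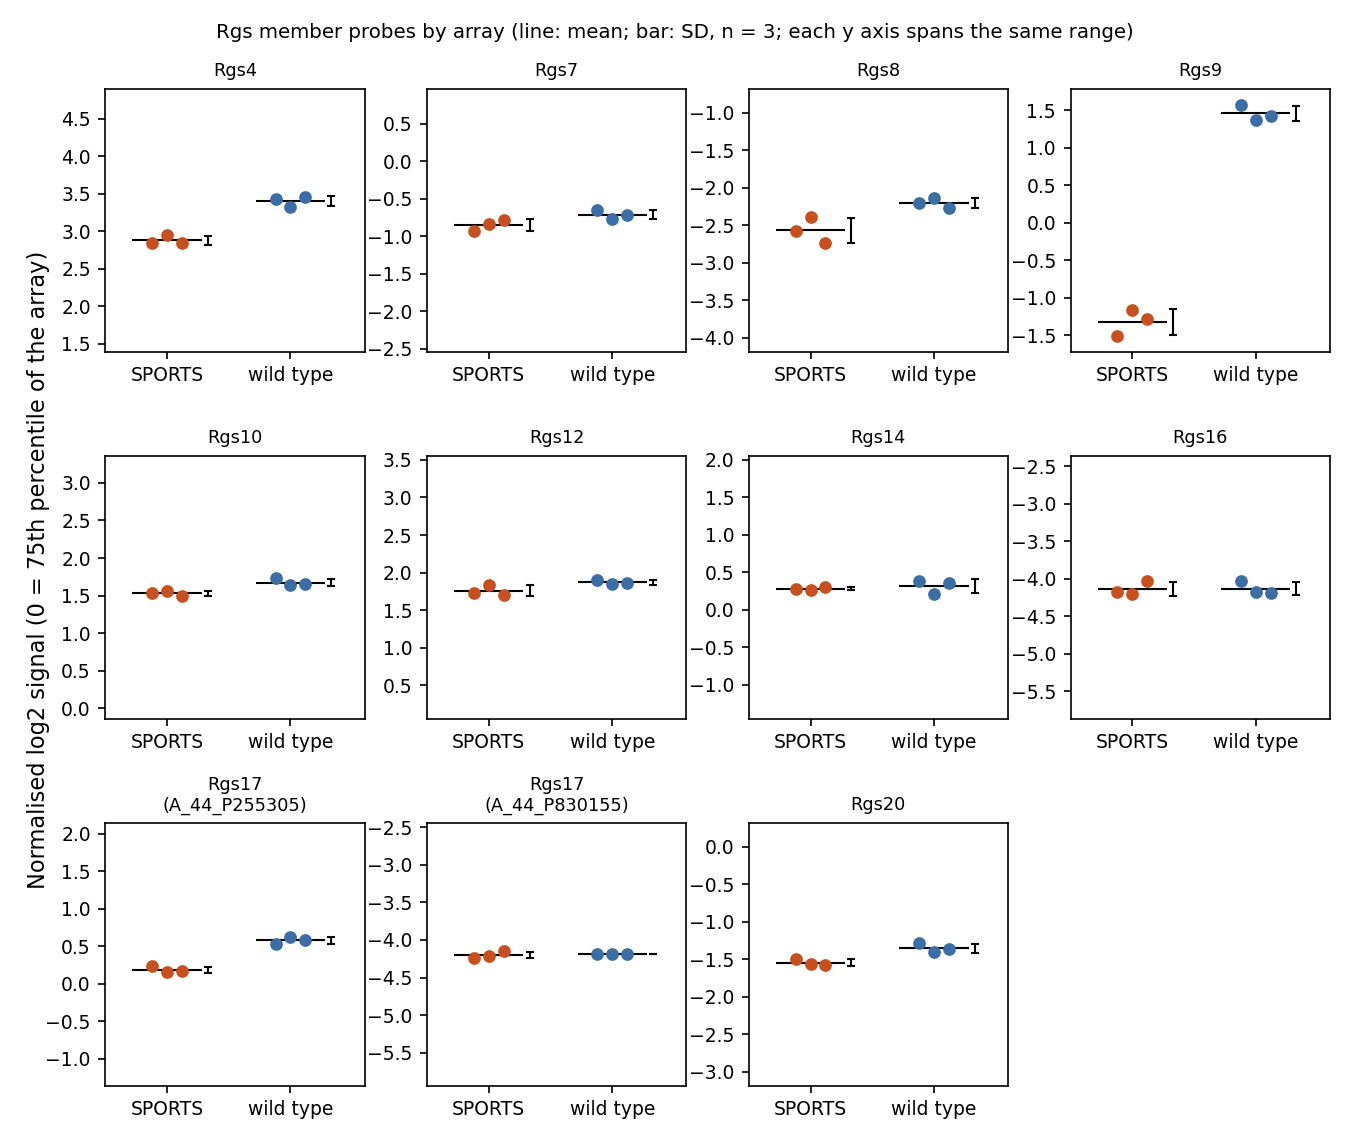
Normalised log2 signal of each Rgs member probe on the 6 arrays, with SPORTS left of wild type, points for single rats, lines for means and bars for SD (n = 3). The vertical axis spans the same range in every panel, and the gap between groups fills it only for Rgs9, with SPORTS at -1.32 and wild type at 1.46 on average.

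**Figure D2:**
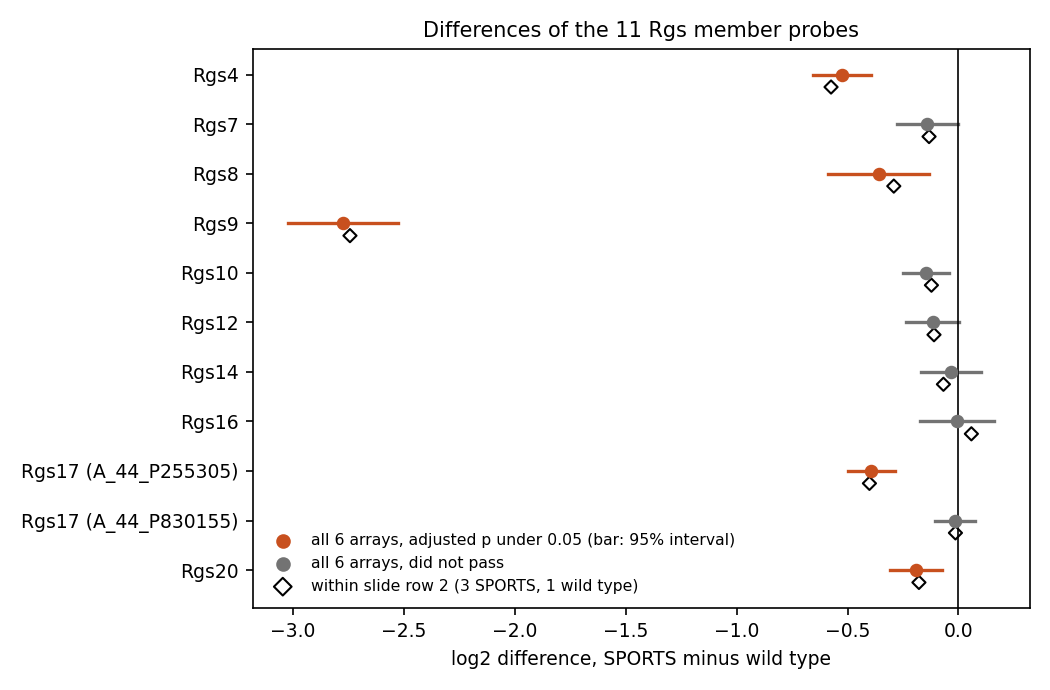
Log2 difference, SPORTS minus wild type, of the 11 member probes from all 6 arrays with 95% intervals, coloured where the adjusted p was under 0.05, and within slide row 2 as open diamonds. The Rgs9 probe lies at -2.77 and the other 10 lie between -0.52 and -0.0059.

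The promoter windows of the 3 members that both fits called, unblocked and blocked on slide row, are shown to set their start sites side by side. Each runs from 250 bases before to 50 bases after the start given by RefSeq on build GRCr8, 5′ to 3′ on the gene's strand, and 9 of the 10 members matched an entry. They lie at chr10:94770338-94770637, minus strand, for Rgs9, at chr13:84475835-84476134, minus strand, for Rgs4, and at chr1:44729896-44730195, minus strand, for Rgs17. Capitals mark matches, on either strand, to 5 motifs: the cAMP response element TGACGTCA, its short core TGACG, the GC box GGGCGG, the TATA box TATAAA and the E-box CACGTG.
Rgs9: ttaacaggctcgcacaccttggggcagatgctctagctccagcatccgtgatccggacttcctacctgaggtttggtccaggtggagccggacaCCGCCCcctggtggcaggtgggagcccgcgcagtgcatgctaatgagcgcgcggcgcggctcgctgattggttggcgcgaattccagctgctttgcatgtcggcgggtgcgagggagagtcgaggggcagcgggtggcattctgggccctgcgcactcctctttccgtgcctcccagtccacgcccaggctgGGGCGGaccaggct
Rgs4: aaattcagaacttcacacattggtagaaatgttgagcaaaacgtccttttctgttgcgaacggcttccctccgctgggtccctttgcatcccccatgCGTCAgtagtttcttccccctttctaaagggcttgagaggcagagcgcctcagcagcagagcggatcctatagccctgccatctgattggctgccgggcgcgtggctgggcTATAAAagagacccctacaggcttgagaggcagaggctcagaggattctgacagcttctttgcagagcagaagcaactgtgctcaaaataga
Rgs17: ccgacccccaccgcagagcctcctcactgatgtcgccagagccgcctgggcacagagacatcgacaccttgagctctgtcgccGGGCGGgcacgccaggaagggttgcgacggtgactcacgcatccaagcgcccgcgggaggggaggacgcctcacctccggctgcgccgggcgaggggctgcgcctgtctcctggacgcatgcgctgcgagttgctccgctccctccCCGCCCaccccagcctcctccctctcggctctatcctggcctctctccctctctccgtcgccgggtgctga
The windows differ in kind. Rgs9 and Rgs17 hold 2 GC boxes each and neither a TATA box nor a cAMP response element, whereas Rgs4 holds 1 TATA box and 1 cAMP core and no GC box. Members that were not called share the first pattern: Rgs10 and Rgs16 hold 2 GC boxes each and Rgs12 holds 4, without a TATA box or cAMP element. GC content was 66.3% for Rgs9, 52.7% for Rgs4 and 71.0% for Rgs17, against a median of 51.7% over 33469 windows. In that whole set, 33.1% of windows held a GC box, 14.2% a TATA box, 21.2% a cAMP core, 1.83% the whole element, which contains that core, and 6.42% the E-box. Such matches describe letters only, and none of the 5 motifs was found in all 3 windows.

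The R7 members shorten dopamine and opioid signals in neurons through their complex with Gnb5. Rgs9, whose long splice form is concentrated in striatal neurons and whose short form serves photoreceptors, had signals of -1.51, -1.17 and -1.28 in SPORTS rats 1 to 3, against 1.57, 1.37 and 1.43 in wild type rats 1 to 3. Every SPORTS array lay far below every wild type array for this gene. Before normalisation the processed signal was 555.6, 703.3 and 629.3 in SPORTS and 4677.6, 4218.9 and 4263.8 in wild type. Rgs9 fell by 2.77 ± 0.10 (SE), a 6.84-fold difference (limma adjusted p = 1.08e-04), with a 95% interval of -3.02 to -2.53. Among the 19825 tested probes that were above background on all 6 arrays, this was the fall of rank 5 by size. That ordering leaves out tested probes that were dim on some arrays, and some of those fell further. Within slide row 2 it was -2.74. The files do not say which splice form the probe reads. Rgs7, which is expressed widely in neurons, had -0.93, -0.84 and -0.78 in SPORTS and -0.64, -0.77 and -0.72 in wild type. These ranges barely separate, and Rgs7 did not pass at -0.14 ± 0.056 (limma adjusted p = 0.136; 95% interval -0.28 to -0.0036).

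Of the remaining R7 genes, Rgs6 had no matched probe. Rgs11, best known from retinal bipolar cells, had -4.58, -4.69 and -4.71 in SPORTS and -2.61, -2.58 and -2.57 in wild type, on a dim probe that was above background on all 6 arrays. It fell by 2.07 ± 0.047 (SE; limma adjusted p = 3.22e-05), the fall of rank 13 in the same ordering. With normexp background correction, which adds an offset that shrinks differences of dim probes, Rgs11 had a difference of -1.26. The R7 proteins need partners for stability and membrane anchoring. Of 3 tested partner genes, 3 fell and none rose, with a median over their 5 probes of -0.29. Among all tested probes 10.1% were called lower. Gnb5, the obligate beta subunit that stabilises R7 proteins, had -0.66, -0.71 and -0.73 in SPORTS and -0.11, -0.19 and -0.36 in wild type and fell by 0.48 ± 0.071 (limma adjusted p = 0.00788). Rgs7bp, which anchors the complex to the membrane, fell by 0.29 ± 0.037 (limma adjusted p = 0.00473). Gpr158, a receptor that recruits Rgs7, fell by 0.32 and 0.29 on 2 probes, while its remaining probe differed by 0.0051 and did not pass. Rgs9bp, the anchor of the photoreceptor form, was above background on 2 SPORTS arrays and 1 wild type array and was not tested. With the slide row as a block, Gnb5 and 1 probe of Gpr158 were still called and Rgs7bp was not (limma adjusted p = 0.0442, 0.0462 and 0.0548).

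Striatal marker genes moved with Rgs9. All 12 tested genes of that list were lower in SPORTS, over 16 probes with differences from -3.08 to -0.72 and a median of -1.40. Their summed signal, in units of the 75th percentile spot, was 14.3 to 15.9 in SPORTS and 37.4 to 43.1 in wild type. Gpr6, the other gene of the list, was not well above background on any array. The list was known to be low in SPORTS when it was chosen, so it is no independent support. Adora2a and Drd1, receptor genes of striatal projection neurons, had the largest differences of the list at -3.08 and -2.43, and Drd1 was above background on 1 of 3 SPORTS arrays. The difference of Rgs9 lay within the range of these markers, and its place among them was not tested. Blocked on slide row, the fit still called all 12 lower, with a median of -1.31 within row 2.

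**Figure D3:**
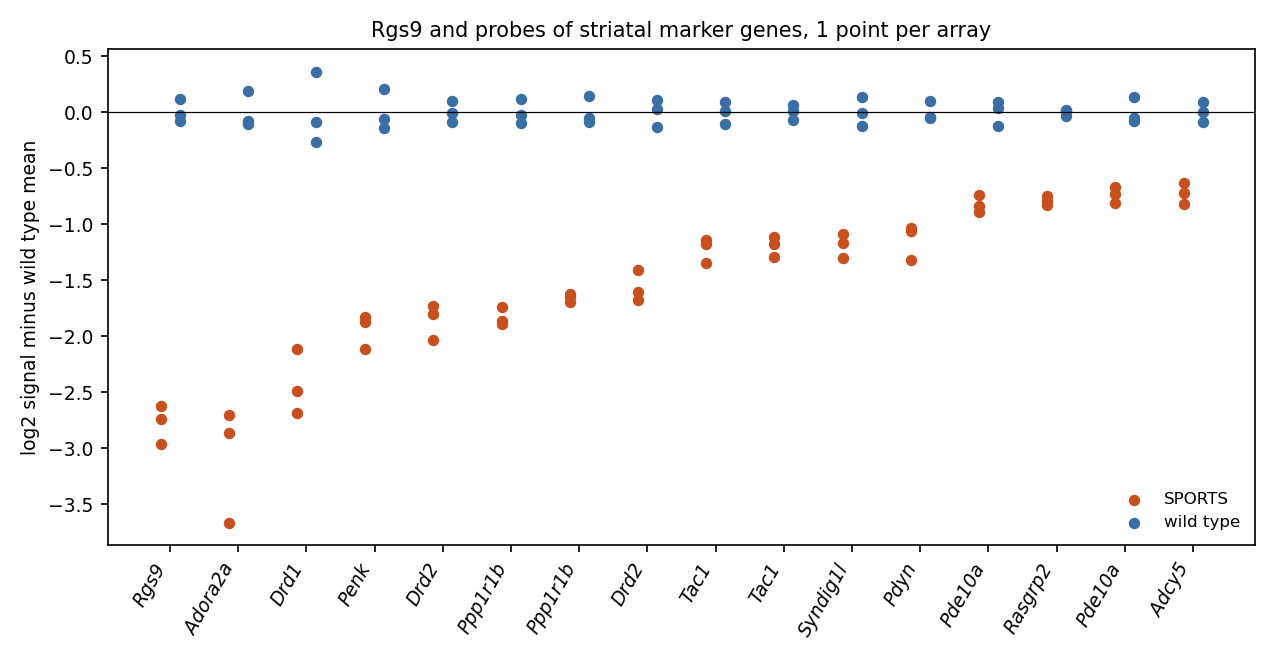
Signal of Rgs9 and of 15 of the 16 tested probes of striatal marker genes on each array, as log2 signal minus the wild type mean of the same probe, with 1 point per rat. For every probe drawn the 3 SPORTS points lie below the 3 wild type points, and Rgs9 lies between Adora2a and Drd1 in the size of its difference.

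Of the 3 R4 members, 2 fell, Rgs4 and Rgs8, in a comparison that called 10.1% of all tested probes lower. Rgs4, which limits Gi and Gq signalling and is abundant in cortical and thalamic neurons, was printed 10 times per array, and its spots on 1 array had an SD of 0.028 to 0.047 on the log2 scale. Its signals were 2.84, 2.95 and 2.85 in SPORTS rats 1 to 3, against 3.43, 3.32 and 3.45 in wild type rats 1 to 3. The groups were clearly apart, by more than the spread of spots or of rats. Rgs4 fell by 0.52 ± 0.053 (SE), 1.44-fold (limma adjusted p = 0.00236), and within row 2 its difference was -0.57. Cortex markers fell for 2 of 4 tested genes, Tbr1 and Lamp5, and their summed signal was 1.35 to 1.61 in SPORTS and 1.90 to 1.95 in wild type. By size, cortical genes were led by differences of -0.68 for Tbr1, -0.66 for Lamp5 and -0.22 for Fezf2. Neither gene was called in the fit blocked on slide row (limma adjusted p = 0.259 for Tbr1 and 0.0522 for Lamp5). The part of these cells in the Rgs4 difference was not tested.

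Rgs8, an R4 gene of Purkinje cells that speeds the kinetics of G protein gated potassium channels, had -2.58, -2.39 and -2.73 in SPORTS and -2.21, -2.14 and -2.27 in wild type. SPORTS rat 2 came close to the wild type range, and the SPORTS SD was 0.17. Rgs8 fell by 0.36 ± 0.092 (limma adjusted p = 0.0433). Blocking on the slide row ended this call (limma adjusted p = 0.269, within 0.0160 to 0.314 across all alternatives). So did testing dim probes as well, and so did leaving out any 1 array other than SPORTS rat 2. Purkinje and cerebellar markers did not fall alike: of 7 tested genes, Itpr1 fell and none rose, and the summed signal was 16.5 to 20.8 in SPORTS and 19.8 to 22.1 in wild type. Most of that sum came from 1 Itpr1 probe, at 3.74 to 3.94 in SPORTS and 4.02 to 4.21 in wild type on the log2 scale. The median difference over the 8 tested probes of the list was 0.27. By size, cerebellar genes were led by differences of 1.10 for Pcp2, 0.64 for Car8 and 0.54 for Cbln1. Blocked on slide row, neither Itpr1 probe was called (limma adjusted p = 0.0666 and 0.126). Pcp2 and Car8, both Purkinje markers, stood at -0.51 and 0.34 in SPORTS rat 1, against -3.75 to -3.54 and -1.59 to -1.43 on the other 5 arrays. Rgs8 itself was not high in that rat. Without SPORTS rat 1 its difference was -0.35 (limma adjusted p = 0.113). En2 was not above background on any array and Gabra6 on 1 SPORTS array only.

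Rgs16, a small R4 protein first described in retina and known from thalamus in mice, had dim signals of -4.17, -4.20 and -4.03 in SPORTS and -4.02, -4.17 and -4.19 in wild type. The groups overlapped almost entirely. Its difference was -0.0059 ± 0.068 (limma adjusted p = 0.963), with a 95% interval of -0.17 to 0.16, and its sign depended on the alternative. Of 4 tested thalamic marker genes, Slc17a6 rose and none fell, and their summed signal was 8.93 to 11.7 in SPORTS and 6.33 to 8.28 in wild type. By size, thalamic genes were led by differences of 0.90 for Slc17a6, 0.57 for Calb2 and 0.31 for Lef1. Slc17a6 was not called in the blocked fit (limma adjusted p = 0.0964).

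Other R4 genes were measured beside the members. Rgs2, which acts mainly on Gq and is induced by neuronal activity, had 1.11, 1.16 and 1.12 in SPORTS and 1.88, 1.80 and 1.88 in wild type. All SPORTS values were low, and Rgs2 fell by 0.72 ± 0.039 (limma adjusted p = 2.99e-04), a call kept with the slide row as a block (limma adjusted p = 0.00547). Rgs5, a marker of pericytes that neurons also express, fell by 0.40 ± 0.067 (limma adjusted p = 0.0114), but not with the block (limma adjusted p = 0.107; range 0.00175 to 0.126). None of the 4 vessel and mural markers fell and Pecam1 rose, with a summed signal of 3.07 to 3.25 in SPORTS and 2.59 to 3.05 in wild type. Leading vessel differences were 0.26 for Pecam1, 0.20 for Cldn5 and 0.092 for Cdh5. With the block Pecam1 was not called (limma adjusted p = 0.0602). Rgs3, which acts on Gi and Gq subunits, was at 1.53, 1.89 and 1.97 in SPORTS and 1.77, 1.78 and 1.69 in wild type, so that SPORTS rat 1 alone lay low, and it did not pass at 0.049 ± 0.12 (limma adjusted p = 0.807). Rgs1, an immune cell gene at the edge of detection, differed by 0.47 ± 0.19 and did not pass (limma adjusted p = 0.139). With the row as a block it was 0.89 and passed (limma adjusted p = 0.0234; range 0.0106 to 0.271). Leaving out 1 array moved its difference between 0.27, without wild type rat 3, and 0.65, without wild type rat 2, where it passed (limma adjusted p = 0.0464). With normexp it was 0.16. Rgs18, known from platelets, was above background on 1 array and was not tested, and Rgs13, Rgs21 and Rgs22 had no matched probe.

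In the RZ group, 1 of the 2 probes of Rgs17 and the probe of Rgs20 fell, where 10.1% of all tested probes were called lower. Rgs17 restrains Gz and Gi and associates with opioid receptors in mouse brain. Its bright probe, A_44_P255305, had 0.23, 0.16 and 0.16 in SPORTS and 0.52, 0.62 and 0.59 in wild type. Those groups were well apart, and the probe fell by 0.39 ± 0.043 (SE), 1.31-fold (limma adjusted p = 0.00306; -0.40 within row 2). The dim probe, A_44_P830155, had -4.23, -4.21 and -4.15 in SPORTS and -4.18, -4.19 and -4.18 in wild type, which overlap. Its difference was -0.014 ± 0.037 (limma adjusted p = 0.828), with a 95% interval of -0.10 to 0.076 that leaves out the value of the bright probe. The log2 ratio of the bright over the dim probe differed, SPORTS minus wild type, by -0.38, with a two-sided exact permutation p of 0.1, the smallest that 3 against 3 arrays allow. Both probes carry the same transcript accession, and the files do not show which part of the transcript each reads.

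Rgs20, the other RZ member, which was first isolated as a regulator of Gz in brain, had -1.50, -1.56 and -1.58 in SPORTS and -1.29, -1.41 and -1.37 in wild type. The SPORTS values sat just under the wild type values. Rgs20 fell by 0.19 ± 0.047, 1.14-fold (limma adjusted p = 0.0377). This small fall lost its call when any 1 of the 6 arrays was left out, and likewise when the fit blocked on slide row (limma adjusted p = 0.214, within 0.0197 to 0.214 across all alternatives). Its difference ranged from -0.22 to -0.16. Rgs19, an RZ gene whose product binds Gi subunits, did not pass at -0.084 ± 0.068 (limma adjusted p = 0.438).

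No R12 member passed. Rgs10, a small protein abundant in microglia and also found in neurons, had 1.54, 1.56 and 1.49 in SPORTS and 1.73, 1.64 and 1.65 in wild type, values that did not overlap but lay close. Its difference was -0.15 ± 0.042 (limma adjusted p = 0.0594), and it passed with 2 alternatives, a trended and robust variance model and a percentile that counts each probe once (range 0.0211 to 0.303). Microglial markers showed 1 of 6 genes lower, Tmem119, and none higher, with a summed signal of 8.80 to 9.75 in SPORTS and 9.02 to 9.79 in wild type. Leading microglial differences were -0.77 for Tmem119, -0.19 for Cx3cr1 and 0.14 for Csf1r. Tmem119 kept its call with the block, with differences of -0.67 and -0.63 on its probes. Rgs12, a large scaffold with a Ras-binding and a GoLoco motif besides its RGS domain, ranged from 1.70 to 1.84 in SPORTS and 1.84 to 1.91 in wild type and differed by -0.12 ± 0.049 (limma adjusted p = 0.154; 95% interval -0.24 to 0.0035). Rgs14, a protein of similar build that limits synaptic plasticity in CA2 neurons of mice, had 0.27, 0.27 and 0.30 in SPORTS and 0.39, 0.21 and 0.35 in wild type. All 3 SPORTS values fell inside the wild type range, and the difference was -0.034 ± 0.055 (limma adjusted p = 0.715; 95% interval -0.17 to 0.10). Of 3 tested CA2 marker genes, Pcp4 and Necab2 fell and none rose, with a summed signal of 4.67 to 5.85 in SPORTS and 7.09 to 7.71 in wild type. Most of that sum came from Pcp4. Both Amigo2 probes lay above 0, at 0.078 and 0.20, and did not pass. Leading CA2 differences were -0.51 for Pcp4, -0.39 for Necab2 and 0.20 for Amigo2. Neither Pcp4 nor Necab2 was called with the block (limma adjusted p = 0.164 and 0.104). What these marker genes share with the R12 values was not tested.

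The G proteins, their kinases and their effectors put these values in context. Of 80 tested probes of other Rgs and pathway genes, 22 were called lower and 4 higher, against 10.1% and 11.1% of all tested probes. The lists were chosen with earlier results of these data known, and their excess of falls was not tested. Among the 66 tested genes of these lists, 19 fell, 3 rose and 44 did not pass. The median over their 80 probes was -0.080. With the slide row as a block 10 were called lower and 2 higher. Alpha subunits counted 3 lower and 1 higher of 13 genes. Gnao1, the Go subunit on which many RGS proteins act, fell by 0.47 and 0.42 on its 2 probes, and Gnal, the Golf subunit that couples striatal dopamine and adenosine receptors, fell by 0.29 ± 0.035 (SE; limma adjusted p = 0.00434). Gnat1, the rod transducin subunit, fell by 0.55 on 1 of 2 probes, and Gna14, of the Gq class, rose by 0.36. With the block Gnao1 (1 of 2 probes), Gnal and Gnat1 were still called and Gna14 was not (limma adjusted p = 0.0857). The Gi subunit genes Gnai1, Gnai2 and Gnai3 and the Gz gene Gnaz did not pass, at -0.087, -0.011, 0.11 and -0.094.

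Beta and gamma subunits counted 4 genes lower and 1 higher of 12. Gng7, the gamma subunit that assembles with Golf in striatum, had -2.31, -2.15 and -2.12 in SPORTS and -0.76, -1.01 and -1.02 in wild type and fell by 1.26 ± 0.091 (SE; limma adjusted p = 7.99e-04). Gnb3 had the largest fitted fall of the list, 1.44 ± 0.38 (limma adjusted p = 0.0473), but was above background on 2 of 3 SPORTS arrays, so its size is uncertain. Gnb2 and Gng13 fell by at most 0.26, and Gngt2 rose by 0.35 and 0.37 on 2 probes. Of these 5 genes the blocked fit called Gng7 only (limma adjusted p = 0.0142), with 0.115 for Gnb3, 0.139 for Gnb2, 0.109 at the lowest for Gng13 and 0.0901 at the lowest for Gngt2. None of 6 receptor kinase genes (Grk1 to Grk6) passed, with differences from -0.25 to 0.18. With the block 1 of the 2 Grk4 probes was called lower, at -0.63 (limma adjusted p = 0.0365), against -0.16 without it. Of 6 more distant relatives with an RGS-like domain, only Axin2 passed, at -0.30. The chaperones of alpha subunits moved apart, Ric8a by 0.47 ± 0.046 (limma adjusted p = 0.00212) and Ric8b by -0.47 ± 0.089 (limma adjusted p = 0.0166). Neither Axin2 nor Ric8b was called in the blocked fit (limma adjusted p = 0.0620 and 0.137), whereas Ric8a was (limma adjusted p = 0.0298). Of 13 effector genes 4 fell and none rose, led by Adcy5, the main adenylyl cyclase gene of striatum, which fell by 0.72, and by 1 probe of Plcb1, a Gq effector, which fell by 0.67. The other Plcb1 probe, at -0.77, did not pass. Adcy3 and Adcy2 fell by 0.17 and 0.14. Blocked on slide row, Adcy5 alone of these 4 was called (limma adjusted p = 0.0272), with 0.208 for that Plcb1 probe, 0.264 for Adcy3 and 0.240 for Adcy2. The potassium channel genes Kcnj3, Kcnj6 and Kcnj9, which beta and gamma subunits open, did not pass.

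**Figure D4:**
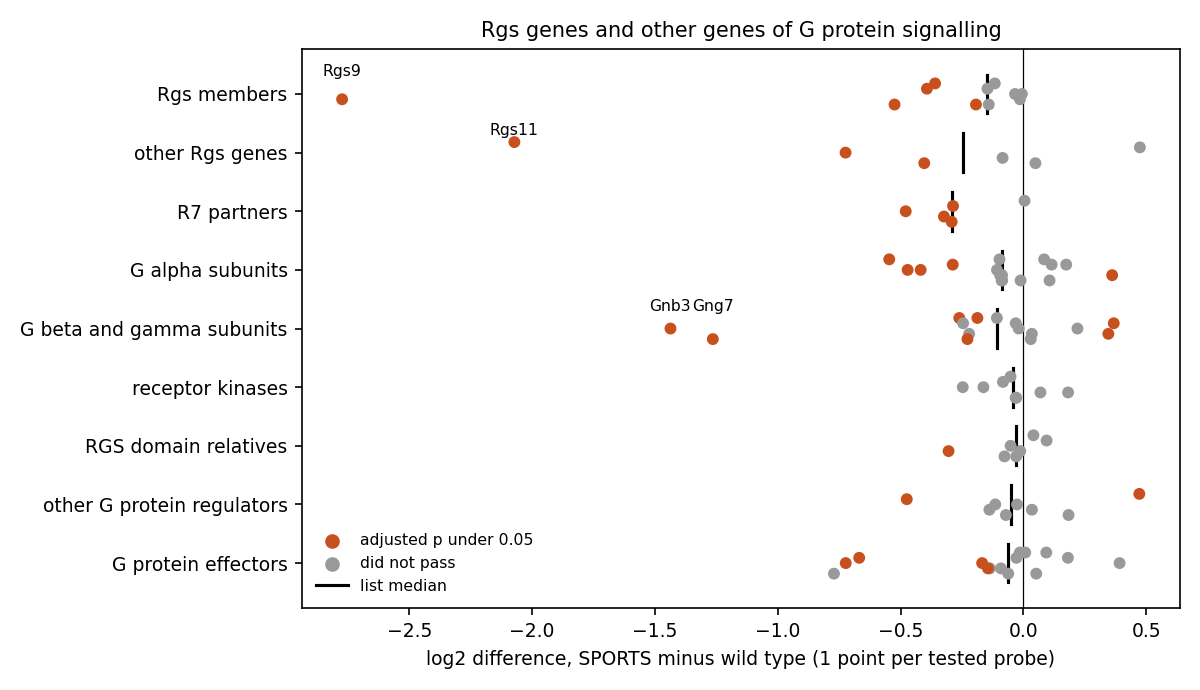
Log2 difference, SPORTS minus wild type, of each tested probe of the Rgs members, the other Rgs genes and 7 lists of G protein signalling, coloured where the adjusted p was under 0.05, with the median of each list as a black line. Rgs9, Rgs11, Gnb3 and Gng7 are the genes with differences beyond 1 in size, and all other probes lie between -0.77 and 0.47.

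**Figure D5:**
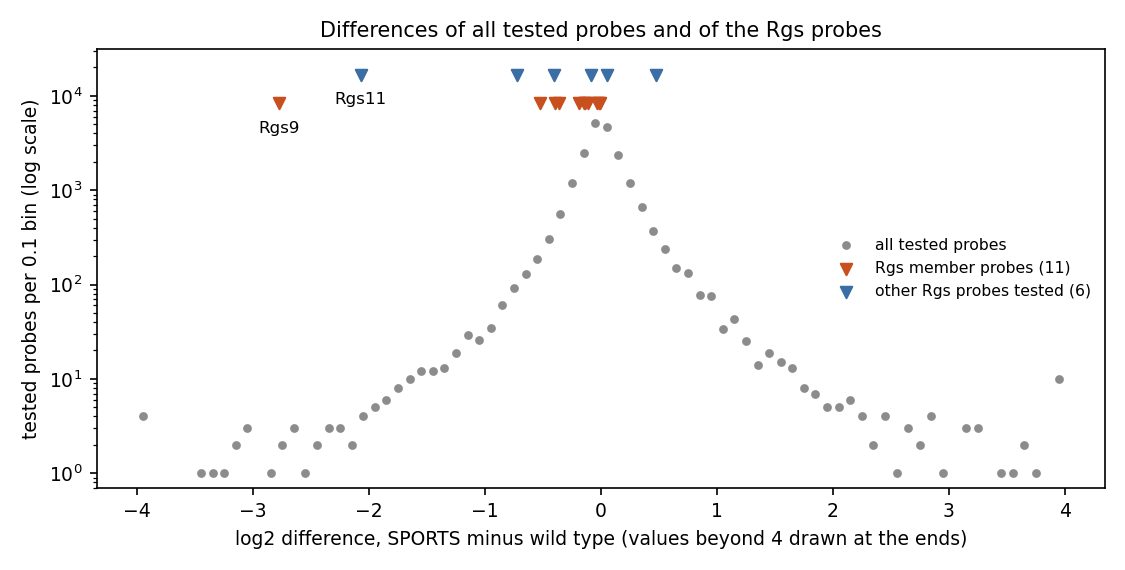
Number of tested probes by log2 difference, SPORTS minus wild type, on a logarithmic vertical axis, with the 11 Rgs member probes and the 6 tested probes of other Rgs genes as triangles. Most Rgs probes lie in the dense middle of the distribution, slightly left of 0, while Rgs9 and Rgs11 lie in its sparse left tail.

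Genes with profiles most like those of the 3 member probes with the largest falls were sought by the root mean square distance between log2 profiles over the 6 arrays, after each profile's own mean was removed. For Rgs9, 3 of the 4 nearest were Slc35d3, Mcrip1 and Adora2a, at distances of 0.089, 0.217 and 0.255 log2 units. Their differences were -2.80, -2.55 and -3.08. For Rgs4 the nearest were Ttc9b, Stx1a, Smpd3 and Abhd2, at 0.033 to 0.039, and for the bright Rgs17 probe Sstr2, Kcnk13, Tmem114 and Rph3al, at 0.029 to 0.034. Because the 6 arrays form 2 groups, any profile with an equal difference between them lies close by construction.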

How the data were processed

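Per the file headers, spot intensity comes from version 10.10.1.1 of Agilent Feature Extraction, run by the authors. That program removed background and spatial trend from each array's signal. In the authors' deposited series matrix, each intensity value is that signal multiplied by a single factor per array (1.38 to 1.47) on a linear scale, with column medians of 384 to 394 for SPORTS and 376 to 382 for wild type; no source used here gives how the factors were chosen.

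Spots marked as outliers by that program (3075 values) were left out, log2 signals were averaged over the spots of each probe, and the 75th percentile of each array's non-control spots (1530 to 1628) was subtracted. Testing required that, in every array of SPORTS or in every array of wild type, over 0.5 of a probe's spots were called well above background. No spot was saturated. Precision is limited by the 6 arrays. SPORTS and wild type were compared with limma 3.58.1 in R 4.3.3 (two-sided), and the procedure was tested on simulated data.

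The arrays give no gene names. Transcript accessions were matched without versions to RefSeq genes (GRCr8), and 18005 of 30367 probes had a match. Because the array design uses an older build, no probe positions are given. Members, lists and the naming rule were chosen with earlier results of these data known. Named were all member probes and all Rgs genes, up to 6 called genes of each pathway list, the 3 genes with the largest differences of each marker list, and, for the 3 members with the largest differences, the 4 genes with the nearest profiles, leaving out LOC and RGD symbols. Some genes of the lists are not reported here. Snap25, marker genes outside that rule and pathway genes that did not pass were named after their values were seen. Alternatives were other background corrections, normalisations, filters and variance models, the deposited table, the slide row as a block or row 2 alone, a 2-fold threshold and leaving out each array. For normexp the median brightness of a spot was used with the local background median.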

Additional observations from a re-analysis of the deposited data

How the results depend on the processing

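The count of 5 called member probes, and of 5 member genes, was the same with normexp, quantile normalisation, a median shift, the deposited table, a filter for signal on all 6 arrays and with outlier spots kept. It was 6 with a trended and robust variance model and with a percentile that counts each probe once, a percentile chosen after seeing the data, and 6 genes were called from the mean of a gene's probes. Without the filter on dim probes, with the slide row as a block and within slide row 2, both counts were 3, namely Rgs4, Rgs9 and Rgs17. At a 2-fold threshold both were 1, and without 1 array they were 3 to 4. Rgs9 was called in every alternative, with differences from -2.85 to -2.64, and Rgs4 and the bright Rgs17 probe in all but the 2-fold threshold. No member was called higher in any alternative. Of the other Rgs and pathway genes, 22 were called in the fit of all arrays, 12 with the block, 9 within row 2, 3 at 2-fold and 16 to 21 without 1 array. Over all probes, 4364 were called, 2342 without the filter, 1597 with the block, 1220 within row 2, 349 at 2-fold and 2551 to 3194 without 1 array. Fits without an array hold fewer samples, and the unfiltered fit tests more probes. The blocked and row 2 fits both set SPORTS against 1 wild type array and give the same difference, so they are not separate checks. Otherwise the cause of the changed counts was not tested. Signs changed only for differences near 0 that did not pass. Rgs16 was at 0.058 with the block and within row 2, and at -0.057 to 0.046 without 1 array. Without 1 array the dim Rgs17 probe ranged from -0.039 to 0.0037, Rgs14 from -0.087 to 0.0025 and Rgs3 from -0.036 to 0.18. No paired analysis was possible because the rats of the 2 groups share fewer than 2 numbers in the labels.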

Other observations

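Several Rgs genes lie next to each other on rat chromosome 13 in the RefSeq gene order. Rgs4 and Rgs5 are adjacent, and both were lower in SPORTS, by 0.52 ± 0.053 and 0.40 ± 0.067 on the log2 scale (SE, limma adjusted p = 0.00236 and 0.0114). Rgs8 and Rgs16 are also adjacent, with differences of -0.36 (adjusted p = 0.0433) and -0.0059 (adjusted p = 0.963). Rgs2 lies at 1 end of a run with Rgs13, Rgs1, Rgs21 and Rgs18, and Rgs2 fell by 0.72 while Rgs1 did not pass at 0.47. The differences between neighbours were not tested.

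Outside the lists that were set beside a member, neuronal markers showed 2 of 5 genes lower, Tubb3 and Syt1, and none higher, with a summed signal of 46.4 to 47.2 in SPORTS and 50.3 to 51.0 in wild type. By size, neuronal genes were led by differences of -0.24 for Tubb3, -0.20 for Eno2 and -0.19 for Syt1. Blocked on slide row, neither Tubb3 nor Syt1 was called (limma adjusted p = 0.129 and 0.0948). Astrocyte markers showed 2 of 5 genes higher, Aqp4 and Aldh1l1, and 2 lower, Slc1a2 (-0.16) and Slc1a3 (-0.19). Both of the lower genes had another probe that did not pass. The summed astrocyte signal was 56.5 to 57.7 in SPORTS and 50.1 to 53.5 in wild type. Leading astrocyte differences were 0.58 for Aqp4, 0.31 for Gfap, which did not pass (limma adjusted p = 0.102), and 0.31 for Aldh1l1. In the blocked fit only Aqp4 was called, on 2 of its 3 probes, and none was called lower. Oligodendrocyte markers showed 3 of 6 genes higher, Mog (0.28) among them, and none lower, with a summed signal of 215 to 229 in SPORTS and 197 to 224 in wild type. None of them was called with the block (limma adjusted p = 0.0572 for Mog). The 3 blood genes did not pass, with a summed signal of 83.7 to 147 in SPORTS and 102 to 128 in wild type. By size, blood genes were led by differences of 0.094 for Alas2, 0.084 for Hbb and -0.052 for Hba-a1.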
